A study of Mus musculus with 6 samples.

Results

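The Hox genes of the 4 mouse clusters, HoxA to HoxD, were followed in the proximal hindlimb bud with and without the transcription factor LMX1B. Members were the probe sets whose platform annotation gave exactly 1 symbol of the form Hox, cluster letter and paralogue number. This gave 48 of 45037 probe sets, for 33 of the 39 mouse Hox genes in RefSeq. The remaining Hox genes are not analysed here, and 3 probe sets with several Hox symbols were left out. Messenger RNA came from 129Sv embryos at stage E11.5. The wild-type group held 3 pools, and the other group held 3 pools of embryos homozygous null for Lmx1b. In both, a pool combined both hindlimb buds of 3 embryos, 6 buds in all, cut to about 500 µm of proximal tissue, and was read on 1 array. No treatment, transgene or Cre line is named in the labels, which give the null allele for the whole embryo, so effects within the limb and from elsewhere in the embryo cannot be told apart.

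Hox genes encode homeodomain transcription factors that give cells positional identity along the body and limb axes. Genes at the 3′ end of a cluster carry low paralogue numbers and act in anterior regions, while those at the 5′ end, the posterior genes with numbers 9 to 13, pattern the limb segments. Paralogues 9 and 10 are needed for the upper segment, paralogue 11 for the middle segment and paralogue 13 for the digits. In the limb this patterning is carried mainly by HoxA and HoxD, with posterior HoxC genes active in the hindlimb. LMX1B sets dorsal fate in limb mesenchyme, an axis at right angles to the one along which the posterior Hox genes are deployed.

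Promoter stretches of 3 genes are shown, because they belong to the member with the smallest p (Hoxa10), the member with the largest change (Hoxd13), and the only member whose windows held the letters TAATTA (Hoxd11). TAATTA is a core that many homeodomain proteins bind, LIM homeodomain factors among them. Each stretch is the 250 bases before the gene's outermost RefSeq start in build GRCm38.p6, read 5′ to 3′ on the gene's strand, and capitals mark TAATTA.
Hoxa10, chr6:52240855-52241104, minus strand: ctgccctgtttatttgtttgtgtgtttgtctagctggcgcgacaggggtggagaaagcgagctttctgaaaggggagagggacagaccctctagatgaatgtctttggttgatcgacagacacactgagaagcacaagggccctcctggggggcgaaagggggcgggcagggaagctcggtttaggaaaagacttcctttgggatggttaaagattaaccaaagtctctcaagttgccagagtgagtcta
Hoxd11, chr2:74679308-74679557, plus strand: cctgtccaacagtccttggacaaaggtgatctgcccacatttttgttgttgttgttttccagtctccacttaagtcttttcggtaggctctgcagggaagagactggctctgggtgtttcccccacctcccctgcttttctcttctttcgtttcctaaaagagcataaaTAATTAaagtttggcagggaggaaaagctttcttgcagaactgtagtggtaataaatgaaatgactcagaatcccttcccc
Hoxd13, chr2:74667975-74668224, plus strand: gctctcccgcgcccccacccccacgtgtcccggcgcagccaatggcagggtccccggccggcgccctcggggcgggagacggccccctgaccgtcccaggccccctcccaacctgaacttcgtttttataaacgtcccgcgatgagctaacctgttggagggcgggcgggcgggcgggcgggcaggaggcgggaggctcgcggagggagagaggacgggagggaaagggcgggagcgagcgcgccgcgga
RefSeq windows were at hand for 19 of the 33 genes, 21 windows in all. TAATTA, which reads the same on both strands, was found in 2 of the 21, both of Hoxd11, or 9.52%. Of all 32851 windows of that length in the table, 4.84% held it. The longer letters TGATTGAT, searched on both strands and a form of the joint PBX and HOX site, were found in 2 of the 21, 1 each of Hoxa2 and Hoxd11, against 0.67% of all windows. A match here describes the letters only, and nothing in these arrays bears on binding.

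The arrays were alike, with correlations over all probe sets from 0.993 to 0.997. The null label held: wild-type pools 1 to 3 gave 8.02, 7.58 and 8.17 for the brighter Lmx1b probe set, whereas null pools 1 to 3 gave 4.62, 4.23 and 4.57. The other Lmx1b probe set was dim and did not separate the groups, with means of 3.93 (wild type) and 3.92 (null; limma adjusted p = 0.986). Hindlimb markers were bright, Tbx4 at 10.49 and Pitx1 at 10.27 in wild-type pools, and the forelimb gene Tbx5 stood at 4.27. The forelimb list also held Hoxc4 and Hoxc5, which stood above the array's median in wild-type pools, at 6.32 and 5.98. Of 15 measured markers of the neural tube, a tissue that also expresses Hox genes, 6 lay below the lower quartile of probe sets, among them Sox2 at 3.16 and Olig2 at 2.15, and 3 lay above the median. The 3 wild-type pools differed in Xist, at 4.68, 9.88 and 4.72, against 9.66, 9.16 and 10.79 in null pools. Wild-type pools 1 and 3 lay below every null pool. What goes with the Xist level and what goes with the genotype therefore cannot be fully told apart. Values are log2 RMA, robust multi-array averages, in which a step of 1 is a doubling of signal. Changes give the null mean less the wild-type mean, SE is the standard error that limma fitted, and p-values are adjusted over all probe sets unless stated.

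In wild-type buds, posterior genes of the A, C and D clusters lay in the bright part of the array, apart from Hoxa13, Hoxc13 and Hoxd12, while no HoxB gene did. Probe sets bind with different strength, so the level of 1 gene is not set against that of another. Each gene is placed only within the distribution of all wild-type probe set means, whose quartiles were 3.31, 4.97 and 7.09. Represented by its brightest probe set, 12 of the 33 genes lay above the upper quartile, 10 between it and the median, 8 between the median and the lower quartile and 3 below that. Above the upper quartile were 9 of the 14 measured genes of paralogues 9 to 13, 3 of the 9 of paralogues 5 to 8 and 0 of the 10 of paralogues 1 to 4. By cluster these were 4 of 9 HoxA genes, 0 of 9 HoxB genes, 3 of 7 HoxC genes and 5 of 8 HoxD genes.

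In HoxA, the anterior genes stood at 4.64 ± 0.06 for Hoxa2, 6.47 ± 0.09 for Hoxa3 and 3.28 ± 0.05 for Hoxa4 (wild-type mean and SD, n = 3). Hoxa5, a gene of the trunk and forelimb level, stood at 7.72 ± 0.02, and Hoxa7 at 6.56 ± 0.08. Hoxa9, a gene of the limb's upper segment, stood at 10.61 ± 0.04, above 98.0% of probe sets. Hoxa10 stood at 9.63 ± 0.07 and Hoxa11, a gene of the middle segment, at 9.15 ± 0.09. Hoxa13, which marks the future hand and foot, stood at 5.22 ± 0.18, near the median of the array.

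HoxB genes lay between 2.27 ± 0.06 for Hoxb1, a hindbrain gene below the lower quartile, and 6.66 ± 0.10 for Hoxb3. Hoxb2 stood at 5.51 and Hoxb4 at 5.59. The 5 measured genes from Hoxb5 to Hoxb13 lay below the array's median, at 4.09 for Hoxb5, 4.49 for Hoxb6, 3.57 for Hoxb7, 4.33 for Hoxb9 and 3.56 for Hoxb13. At such levels RMA compresses differences.

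In HoxC, Hoxc4 stood at 6.32 ± 0.05, Hoxc5 at 5.98 ± 0.03, Hoxc6 at 7.02 ± 0.16 and Hoxc8 at 8.02 ± 0.18. Hoxc9 stood at 7.75 ± 0.07 and Hoxc10, a hindlimb gene, at 9.63 ± 0.13. Hoxc13, known from hair, nail and tail, stood at 4.26 ± 0.16. In HoxD, Hoxd1 and Hoxd3 were dim, at 2.65 and 4.01. Hoxd8 stood at 7.43 ± 0.15, Hoxd9 at 8.79 ± 0.11, Hoxd10 at 8.15 ± 0.06, Hoxd11 at 7.24 ± 0.17 and Hoxd12 at 5.20 ± 0.18. Hoxd13, a digit gene that also has an early posterior domain in the bud, stood at 7.54 ± 0.38, with the largest spread over wild-type pools of all 33 genes.

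**Figure D1:**
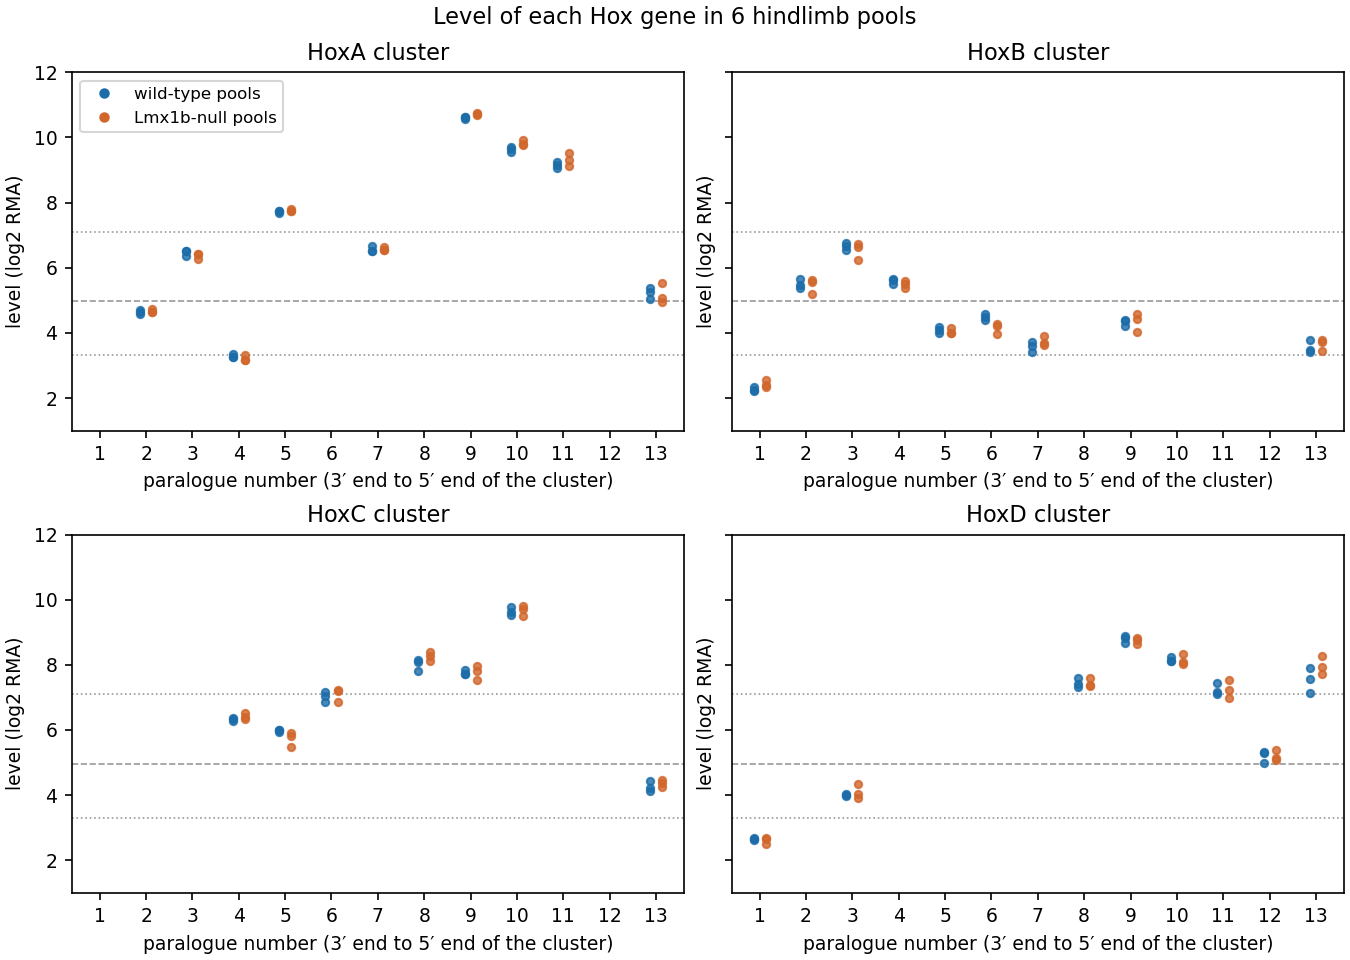
Level of each Hox gene (log2 RMA, vertical axis) against paralogue number, 1 panel per cluster, with a point for each of 3 wild-type and 3 Lmx1b-null pools, taken from the gene's brightest probe set. Grey lines are the lower quartile, median and upper quartile of all probe sets. Points of both groups lie together for most genes, from Hoxb1 near 2.27 to Hoxa9 near 10.61.

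No Hox gene passed the threshold between null and wild-type buds. Of 48 Hox probe sets, 0 had a limma adjusted p under 0.05, against 38 of 45037 probe sets in all, or 0.0844%, and at 1 probe set per gene 0 of 33 Hox genes passed, against 0.104% of all 18193 genes. At an unadjusted p under 0.05 the fit held 4 Hox probe sets, or 8.33%, against 9.41% of all probe sets. The smallest limma adjusted p of any member was 0.297. Under the 17 alternative settings tried, 0 Hox probe sets or genes passed, and the smallest limma adjusted p was 0.244 over probe sets and 0.211 at 1 value per gene.

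The intervals give what size of change the arrays could have missed. Probe sets near the bottom of the range cannot show a fall, so their intervals do not bound one. The 95% interval lay within a 2-fold change either way for all 48 probe sets, and within a 1.5-fold change for 45 of them. The 3 that reached further were the dimmer Hoxa10 probe set and both Hoxd13 probe sets. The SE ran from 0.06 for Hoxa9 to 0.21 for the dimmer Hoxd13 probe set, with a median of 0.09 against 0.08 over all probe sets. Smaller changes than these intervals span cannot be told from 0 with 3 pools a group.

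Over the 33 genes, 20 were higher and 13 lower in null pools, or 60.6% higher, against 57.0% of all genes. The median change was 0.01, and 0.02 over all genes, and the median size of change, sign aside, was 0.08 against 0.07. Centring each array on its median gave 15 of 33 higher. It also moved the background, since the median change over all probe sets went from 0.0140 to -0.0025. By cluster the median change was 0.03 in HoxA, -0.04 in HoxB, 0.08 in HoxC and 0.00 in HoxD. Pools of the groups did not overlap for 5 genes, 3 higher and 2 lower, which is 15.2% against a background of 14.6% of all genes (9.16% higher and 5.44% lower). These shares were near the background, so they set the Hox genes apart in neither direction.

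**Figure D2:**
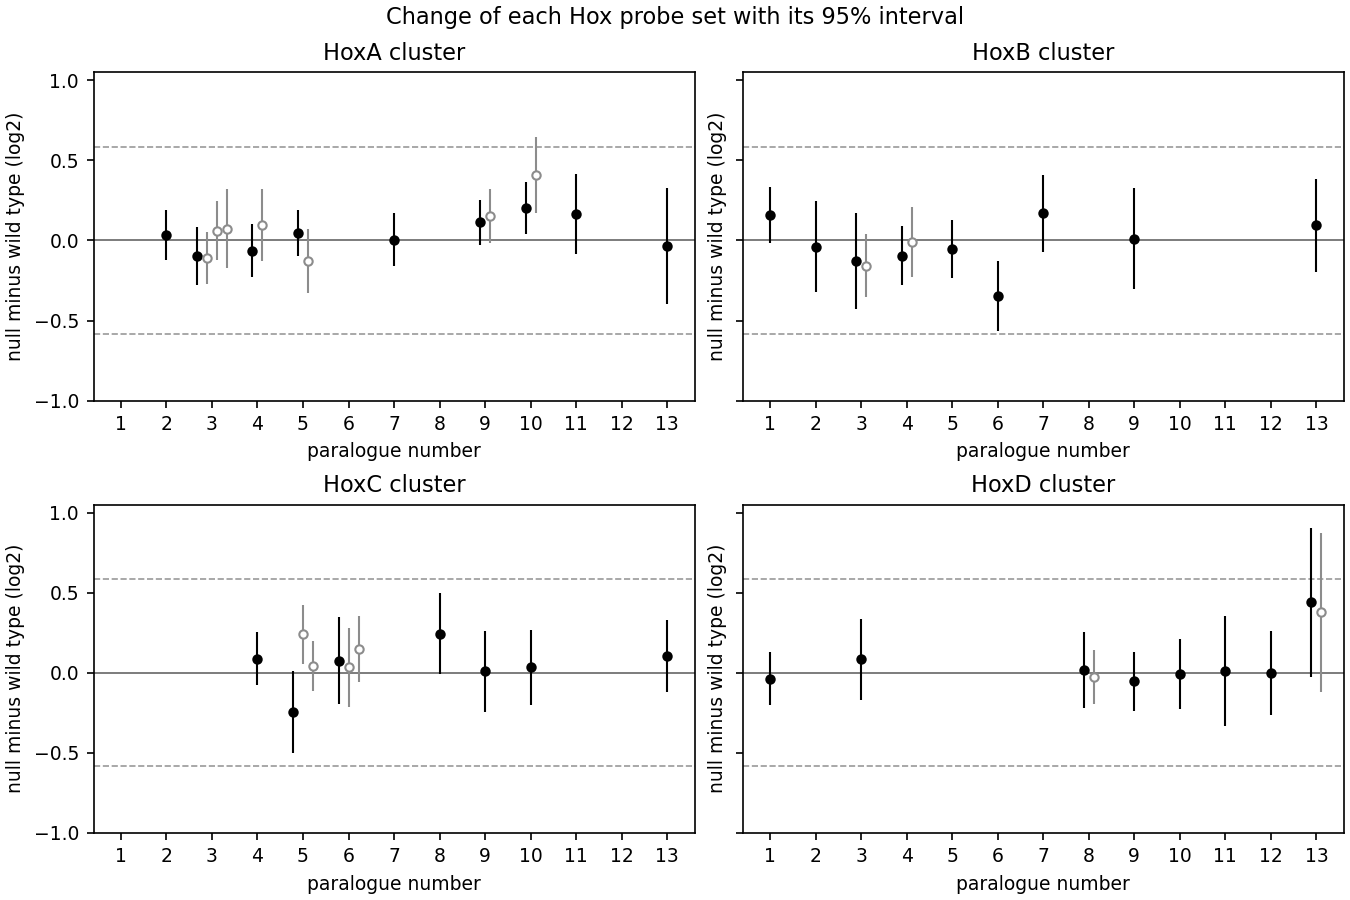
Null minus wild type (log2, vertical axis) against paralogue number for all 48 Hox probe sets, with the 95% interval of the limma fit as bars. Filled points are the brightest probe set of each gene, open points the others, and dashed lines mark a 1.5-fold change. Of the 48 intervals, 4 exclude 0, and those of Hoxd13 are the widest.

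Of the posterior HoxA genes, Hoxa10 had the smallest p, with both probe sets higher in null pools. For its bright probe set the wild-type pools gave 9.56, 9.64 and 9.69, in pool order here and from now on, and the null pools 9.78, 9.92 and 9.80. All null pools lay above all wild-type pools, by a change of 0.20 (SE 0.07; 95% interval 0.04 to 0.37; limma adjusted p = 0.453). For its dim probe set the values were 5.43, 5.51 and 5.21 in wild-type pools and 5.63, 5.86 and 5.88 in null pools. Here too the groups did not overlap, with a change of 0.41 (SE 0.10; interval 0.17 to 0.65; limma adjusted p = 0.297). Neither passed, although the p of each before adjustment was 0.022 and 0.00424.

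Hoxa9, the neighbour of Hoxa10, was also higher in every null pool. Its bright probe set read 10.57, 10.64 and 10.62 in wild-type and 10.73, 10.74 and 10.69 in null pools. The change was 0.11 (SE 0.06, interval -0.03 to 0.25, limma adjusted p = 0.605). The other Hoxa9 probe set was at 0.15 (limma adjusted p = 0.562), also without overlap. Hoxa11 read 9.16, 9.06 and 9.24 in wild-type and 9.13, 9.53 and 9.29 in null pools. Its groups overlapped, since null pool 1 lay inside the wild-type range and null pool 2 stood highest (change 0.16, SE 0.11; limma adjusted p = 0.673). Hoxa11os, the antisense RNA whose gene overlaps Hoxa11, was at 0.21 in its bright probe set (limma adjusted p = 0.602). Hoxa13 read 5.03, 5.25 and 5.38 in wild-type and 5.07, 5.53 and 4.95 in null pools, with null pools 2 and 3 at either extreme. Its change was -0.03 (SE 0.16; interval -0.39 to 0.33).

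Hoxd13 had the largest change of all members, but also a spread to match. Its bright probe set read 7.14, 7.57 and 7.90 in wild-type and 7.72, 8.28 and 7.94 in null pools. The groups overlapped, because wild-type pool 3 lay above null pool 1. The change was 0.44, or 1.36-fold (SE 0.20, interval -0.03 to 0.90, limma adjusted p = 0.547). The dimmer probe set gave 0.38 (SE 0.21; adjusted p = 0.619), and the SE of both lay above that of 98.5% of all probe sets or more. Over the alternatives the change of Hoxd13 ran from 0.24, without wild-type pool 1, to 0.62.

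The rest of the posterior HoxD genes were at or close to 0. Hoxd9 read 8.87, 8.67 and 8.83 in wild-type and 8.75, 8.81 and 8.65 in null pools (change -0.05, SE 0.08; interval -0.24 to 0.13). Hoxd10 read 8.13, 8.11 and 8.23 in wild-type and 8.08, 8.34 and 8.02 in null pools (change -0.01, SE 0.10; interval -0.23 to 0.21). For Hoxd11 the values were 7.18, 7.10 and 7.43 against 7.22, 7.55 and 6.98, a change of 0.01 (SE 0.15). In all 3 genes the null pools spanned most or all of the wild-type range. Hoxd12 read 4.999, 5.31 and 5.30 in wild-type and 5.09, 5.39 and 5.13 in null pools (change 0.00, SE 0.11, interval -0.26 to 0.26). Hoxd8 was at 0.02 and -0.03 in its probe sets, Hoxd3 at 0.08 and Hoxd1 at -0.04. RefSeq places the Hoxd10 gene span over part of that of Hoxd11, so a probe set there may read transcripts of either gene. The same holds for Hoxa3 with Hoxa4, Hoxa5 and Hoxa6, for Hoxb3 with Hoxb4 and for Hoxd3 with Hoxd4.

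Of the HoxC genes, Hoxc8, a gene of the thoracic trunk, had the highest change. It read 7.81, 8.09 and 8.15 in wild-type and 8.39, 8.12 and 8.27 in null pools. The groups overlapped only through null pool 2, which lay under wild-type pool 3 (change 0.24, SE 0.11, interval -0.01 to 0.50, limma adjusted p = 0.543). Without wild-type pool 1 the change was 0.14. Probe sets of Hoxc5 disagreed. The bright one read 5.95, 5.99 and 6.01 in wild-type and 5.81, 5.48 and 5.92 in null pools, all lower (change -0.25, SE 0.11; adjusted p = 0.541), and without null pool 2 the change was -0.12. Another Hoxc5 probe set read 4.73, 4.74 and 4.85 in wild-type and 5.10, 4.88 and 5.06 in null pools, all higher (change 0.24, SE 0.08; adjusted p = 0.433), and the last of the 3 was at 0.04. No direction is given for the gene.

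Hoxc9 read 7.83, 7.71 and 7.71 in wild-type and 7.80, 7.52 and 7.95 in null pools (change 0.01, SE 0.11, interval -0.25 to 0.26). Hoxc10, the hindlimb gene, read 9.52, 9.61 and 9.77 in wild-type and 9.71, 9.49 and 9.80 in null pools (change 0.03, SE 0.10; interval -0.20 to 0.27). Null pool 2 was the lowest pool of all for both, and the remaining pools were mixed. Hoxc13 was dim, at 4.12, 4.23 and 4.43 against 4.25, 4.46 and 4.38 (change 0.10, SE 0.10). Hoxc4 was at 0.09, and the 3 Hoxc6 probe sets at 0.08, 0.03 and 0.15.

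Of the HoxB genes, Hoxb6, known from the posterior trunk and early limb field, was lower in every null pool. It read 4.49, 4.58 and 4.39 in wild-type and 4.26, 4.20 and 3.97 in null pools, all under the array's median. The change was -0.34, a difference of 1.27-fold (SE 0.09, interval -0.56 to -0.13, limma adjusted p = 0.337). Over the alternatives it ran from -0.40 to -0.26. Hoxb5os, whose gene overlaps Hoxb6 and Hoxb5, was at -0.21 (adjusted p = 0.572), and Hoxb5 itself at -0.05. Hoxb7 read 3.40, 3.59 and 3.72 in wild-type and 3.89, 3.64 and 3.69 in null pools, which overlapped (change 0.17, SE 0.10, and 0.08 without wild-type pool 1). Hoxb1 read 2.23, 2.24 and 2.34 against 2.35, 2.39 and 2.54 (change 0.16, SE 0.08; adjusted p = 0.561), below the lower quartile of probe sets, where a change carries little information. Hoxb2, Hoxb3 and Hoxb4 were at -0.04, -0.13 and -0.10, Hoxb9 at 0.01 and Hoxb13 at 0.09. In HoxA, the anterior and middle genes Hoxa2, Hoxa3, Hoxa4, Hoxa5 and Hoxa7 were at 0.03, -0.10, -0.06, 0.05 and 0.00 in their brightest probe sets.

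**Figure D3:**
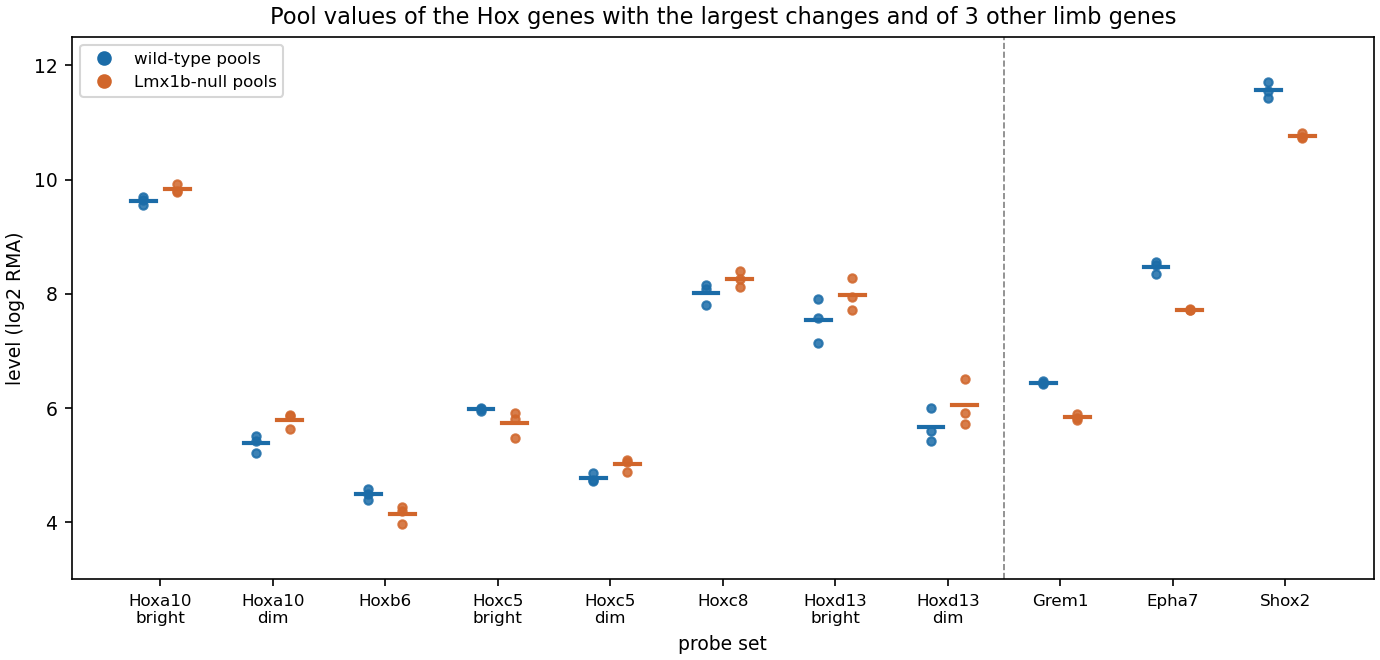
Pool values (log2 RMA, vertical axis) of 8 Hox probe sets with the largest changes or smallest p-values, and right of the dashed line of Grem1, Epha7 and Shox2. Points are pools and bars group means of 3. Groups of Hoxd13 and Hoxc8 overlap, those of Hoxa10 and Hoxb6 differ by 0.20 to 0.41, and those of the 3 genes on the right lie 0.61 to 0.80 apart.

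Pools of the same group differed along the Hox clusters. Pools were ranked within their group and deviations taken from its mean, so neither can show a difference between genotypes. Null pool 2 was the highest null pool for 6 of 6 genes from Hoxd8 to Hoxd13 and for 6 of 7 genes of paralogues 11 to 13. It was the lowest null pool for 6 of 6 genes from Hoxc4 to Hoxc10 and for 5 of 7 genes from Hoxb2 to Hoxb9. Its median deviation from the null mean was 0.22 for paralogues 11 to 13 and -0.20 for Hoxc4 to Hoxc10. Among wild-type pools, pool 3 was highest for 5 of the 7 genes of paralogues 11 to 13 and pool 1 lowest for 4, with median deviations of 0.16 and -0.14. The groups of genes were chosen after these values were seen, and they are given as a description.

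Non-Hox markers of limb position also set null pool 2 apart. Of 10 measured distal limb markers outside the Hox genes, null pool 2 was the highest null pool for 9. The log2 of their summed level was 10.90, 10.99 and 11.16 in wild-type and 10.92, 11.23 and 10.94 in null pools. Sall1, for one, a zinc finger gene of the distal bud, read 7.95, 8.65 and 7.95 in null pools 1 to 3. Of 9 proximal markers, null pool 2 was the lowest null pool for 7 and the highest for the other 2. Meis1 (9.01, 8.71 and 8.95) and Irx3 (9.78, 9.32 and 9.67) were among the 7. The log2 summed level of the 9, Shox2 among them, was 13.02, 13.02 and 13.10 in wild-type and 12.80, 12.65 and 12.74 in null pools. Among wild-type pools, pool 3 was highest for 5 of the 10 distal and 3 of the 9 proximal markers, and pool 1 lowest for 6 and 3. None of the 19 markers lay below the lower quartile. The part of these markers in the Hox values was not tested. Fewer cells of a kind and less RNA per cell cannot be told apart in such pools. Without null pool 2, the change of Hoxa11 was 0.06, that of Hoxa13 -0.21 and that of Hoxd13 0.29, and none passed.

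**Figure D4:**
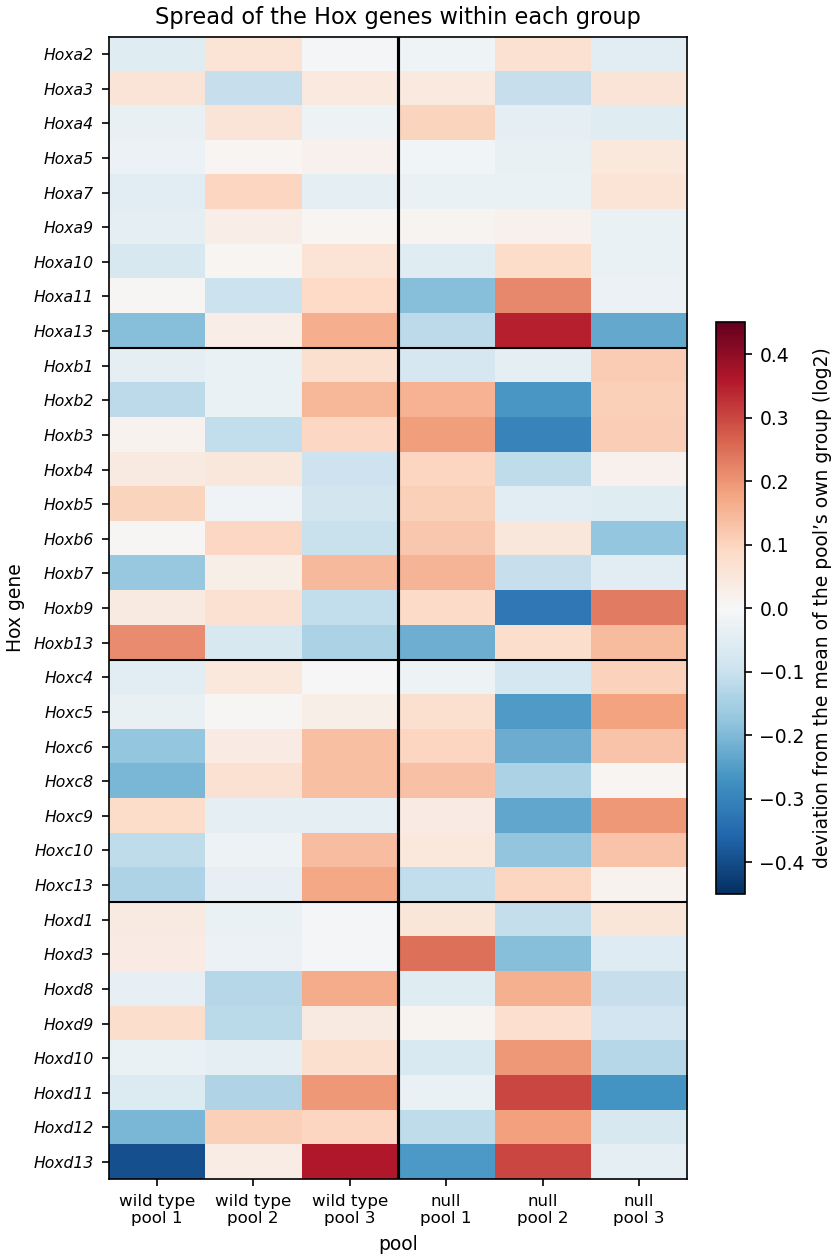
Deviation of each pool from the mean of its own group (log2, colour scale) for 33 Hox genes in cluster order, with 3 wild-type pools left of the line and 3 null pools right of it. In null pool 2 the genes Hoxd8 to Hoxd13 and Hoxa11 to Hoxa13 are above the null mean and most HoxB and HoxC genes below it.

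Genes that work with the Hox proteins were measured beside them. HOX proteins bind DNA with TALE homeodomain partners of the PBX and MEIS classes. Of 8 such genes measured out of 9 listed, 0 passed at 1 probe set per gene, against 0.104% of all genes. At that share a count of 0 says little about so short a list. The partner with the smallest p was Meis2, at 9.57, 9.53 and 9.57 in wild-type and 9.86, 9.54 and 9.81 in null pools (change 0.18, SE 0.09; gene-level limma adjusted p = 0.553), with null pool 2 inside the wild-type range. Meis1 was at 0.01, Pbx2 at -0.02 and Pbx3 at 0.05. Further from 0 were Pbx4 at 0.23, Pknox2 at 0.20, Meis3 at 0.12 and Pknox1 at 0.12. By sign, 7 of the 8 were higher and 1 lower, and 57.0% of all genes were higher. The median change of the 8 was 0.12, against 0.02 over all genes.

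Of 37 measured regulators of Hox transcription, 0 passed, against 0.104% of all genes, so this count too says little. Their median change was 0.01 against 0.02 over all genes. The list holds CDX factors, Polycomb and trithorax proteins, retinoic acid enzymes and receptors, and limb signals. The retinoic acid receptor gene Rarb had the smallest p, at 7.17, 7.03 and 6.70 in wild-type and 6.20, 5.98 and 6.25 in null pools. The groups did not overlap (change -0.83, SE 0.13; gene-level limma adjusted p = 0.0922), and it passed with an intensity trend (0.0477) and with array weights (0.0467). Over the alternatives its adjusted p ran from 0.0467 to 0.496. Gli3, which restricts posterior Hox expression in the bud, was at -0.02. Polycomb genes went both ways. Lower were Bmi1 at -0.15, Suz12 at -0.10, Ezh2 and Eed at -0.08, Ezh1 at -0.04 and Rnf2 at -0.03. Higher were Ring1 and Pcgf2 at 0.11, Cbx7 at 0.09, Phc2 at 0.08, Cbx2 at 0.07, Phc1 at 0.04 and Cbx8 at 0.01. The trithorax genes Kmt2a, Ash2l and Men1 were at 0.17, 0.02 and -0.01. Of 20 measured genes beside or within the clusters, 0 passed, against the same 0.104% of all genes. Evx1 and Evx2, which flank HoxA and HoxD, were at 0.14 and 0.09, and Skap1 beside HoxB had the smallest p (0.16; gene-level adjusted p = 0.477).

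Among genes tied to Hox function in limb buds, 3 of 21 passed the threshold as lower and 0 as higher. Over all genes, 0.0879% passed as lower and 0.0165% as higher. By sign alone, 14 of the 21 were lower and 7 higher. Epha7, an ephrin receptor gene bound by HOXA13 and HOXD13 in the distal limb, read 8.56, 8.51 and 8.35 in wild-type and 7.73, 7.72 and 7.72 in null pools (change -0.75, SE 0.07; gene-level limma adjusted p = 0.0145). Grem1, the BMP antagonist that relays signals between mesenchyme and ridge, read 6.47, 6.44 and 6.43 against 5.90, 5.82 and 5.79 (change -0.61, SE 0.06; adjusted p = 0.0177). Shox2, needed for the proximal skeleton, read 11.44, 11.55 and 11.71 against 10.82, 10.74 and 10.74 (change -0.80, SE 0.08; adjusted p = 0.0177). In all 3 the null pools lay below every wild-type pool. These falls were known from earlier results of the same arrays, so they add no support. None of the 3 passed without wild-type pool 2, without any 1 of the null pools, with Xist as a covariate or with the pool number as a replicate block (adjusted p = 0.0678 for Epha7, 0.0856 for Shox2 and 0.0907 for Grem1), and without wild-type pool 3 only Epha7 passed (adjusted p from 0.00118 to 0.26 over the alternatives of the 3 genes). The change of Epha7 ran from -0.81 to -0.60 over its alternatives, that of Grem1 from -0.64 to -0.58 and that of Shox2 from -0.87 to -0.73.

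Summed marker levels of some other cell types also differed between the groups. Over all genes, 57.0% were higher in null pools. Endothelial markers were at lower values in null pools for 10 of 10, with log2 sums of 10.33, 10.22 and 10.42 in wild-type and 10.13, 10.12 and 10.17 in null pools. Limb muscle markers were at higher values for 8 of 10, with sums of 9.99, 10.58 and 10.33 against 10.75, 10.59 and 10.76. The sums of 11 somite markers (10.33, 10.49 and 10.48 against 10.66, 10.73 and 10.71) and of 15 neural tube markers (8.10, 8.22 and 8.26 against 8.32, 8.29 and 8.29) were also higher in every null pool. No gene of these 4 lists passed the threshold, against 0.104% of all genes, and their part in the Hox and pathway values was not tested. Surface ectoderm markers (9 of 12 higher) and Schwann and neural crest markers (4 of 4 higher) had sums that overlapped between the groups.

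The other 18 genes tied to Hox function in limb buds did not pass. The posterior genes Shh and Hand2, which act with 5′ HoxD genes at the bud's posterior edge, were at -0.10 (SE 0.16) and 0.27 (SE 0.07; gene-level limma adjusted p = 0.33). Hand2 read 10.08, 10.21 and 10.22 in wild-type and 10.46, 10.51 and 10.33 in null pools, without overlap. Fgf10 was at 0.15, Tbx4 at -0.29, Epha4 at -0.53 (adjusted p = 0.167), Gdf5 at -0.88 (0.314) and Zbtb16, a regulator of Hox expression in the hindlimb, at -0.26 (0.478). A fall as large as that of Epha7 lay outside the 95% interval of 48 of the 48 Hox probe sets. For those near the bottom of the range, as for Hoxb1, Hoxd1 and Hoxa4, this says nothing, since they cannot show a fall.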

How the data were processed

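The authors deposited log2 values, 1 for each probe set on each array; RMA made them, per the submitters' processing notes, which give no version. That the base is 2 was read from their range (about 2 to 14) and is not stated in the labels. RMA equalises array distributions, so a shift of most transcripts would not be seen, and the number of arrays limits the precision. Of 45101 probe sets, 64 controls were left out. Symbols came from the supplied platform annotation: 34945 probe sets had 1 symbol, 932 several and 9160 were unnamed here.

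The comparison used R 4.3.3 with limma 3.58.1 (lmFit, eBayes, two-sided, Benjamini-Hochberg adjustment, threshold 0.05). At 1 probe set per gene, the probe set with the highest mean over 6 arrays stood for the gene. Pools were taken as replicates from separate embryos, since the labels name them separately; an exact permutation test of 3 against 3 cannot go below 0.1. On data simulated from these 45037 probe sets, changes of 0.5 were recovered in 67% of cases and of 1 in 99.4%; the simulated spread was the moderated one, so these shares are optimistic.

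Values by pool were given for Hox genes with an unadjusted p under 0.05, the 8 with the largest changes, and paralogues 9 to 13 of HoxA, HoxC and HoxD; from other lists, members past the threshold or the one with the smallest p. Genes named beyond that rule were chosen after their values were seen. The members and lists were chosen with earlier results of these data known. Alternatives were the variance model, array weights, normalization, a brightness filter, cross-hybridising probe sets, the pool number, the Xist level, the threshold, gene averages and leaving out each pool. Deviations of pools with 1 number in common correlated at -0.239, -0.0878 and -0.168. Pools of unlike number were not compared, so these values cannot decide whether the number pairs samples. The main fit took the pools as unpaired. Promoter sequences were RefSeq's for GRCm38.p6; no probe set coordinates are given, as no build is named for the arrays.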

Additional observations from a re-analysis of the deposited data

How the results depend on the processing

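In every alternative run, 0 Hox probe sets and 0 Hox genes were called, as with all pools. Of 268 values of the 17 named Hox genes, 28 had another sign than the main value, in 8 genes, and 0 passed the threshold. Those genes had no called direction. The count over all probe sets, 38, did move. It was 94 with an intensity trend, 69 with array weights, 99 at an adjusted p under 0.1, 20 among probe sets with a mean above the median, 14 with the pool number as a replicate block and 9 with the Xist level as covariate, and 13 to 38 with 1 pool left out. Of 83 genes on the pathway lists 3 were called; 0 were with the replicate block, 0 with the Xist level and 0 to 5 with 1 pool left out, where fewer samples were fitted; otherwise the cause was not tested. Averaging all probe sets of a gene moved the wild-type level of 10 of the 11 Hox genes with several probe sets by more than the SD over pools, by up to 2.12, so a level is a property of its probe set. The brightness filter left 31 Hox probe sets to test. Values near the bottom of the range, as for Hoxb1, Hoxd1 and Hoxa4, cannot show a fall.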
